A study of Mus musculus with 2 samples.

Results

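Myoblasts build muscle fibres by recognising each other, adhering and joining their membranes. Mymk (myomaker) and Mymx (myomixer, also called myomerger) encode the muscle membrane proteins that drive the fusion itself. Cdh15 (M-cadherin) and Cdh2 (N-cadherin) are calcium-dependent adhesion proteins, Jam2 and Jam3 are immunoglobulin-type junctional adhesion molecules, Ncam1 is the neural cell adhesion molecule that muscle precursors also carry, and Cdon and Boc are related cell surface receptors that bind cadherins in myoblasts and Sonic hedgehog in many tissues. These 9 genes were taken by symbol from the 32285 genes of the count table, and all 9 were present. Their unique molecular identifiers (UMIs, 1 per captured transcript), scaled to counts for each 1000000 UMIs of the same cells (CPM), were read in muscle cells, in bins of Myog (myogenin, the factor that marks the onset of terminal differentiation), and in all other cells.

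The cells came from mouse embryos at embryonic day 14 that had been decapitated and eviscerated, strained into a suspension of mononuclear cells, sorted on tdTomato and sequenced from the 3' end of transcripts. Cre recombinase under the Myf5 promoter switched on the Rosa26 tdTomato reporter and cut floxed Srsf2, which encodes a splicing factor, so both genotypes carried Myf5-Cre, the reporter and at least 1 floxed allele: SRSF2f/f/Myf5-Cre/tdT (MKO/tdT) and the control SRSF2f/w/Myf5-Cre/tdT (Het/tdT). Each genotype is 1 library, described as a single sample with no number of embryos given, so no test between genotypes could be run and every interval here covers counting error only. The sample titles and the quality summaries disagree on which library is which. The library titled SRSF2f/f/Myf5-Cre/tdT is headed Het/tdT in the study's quality summaries and is called the Het-headed library here, and the one titled SRSF2f/w/Myf5-Cre/tdT is headed MKO/tdT and is called the MKO-headed library. Srsf2 stood at 219 CPM in the Het-headed and 153 CPM in the MKO-headed library, and 3' counts do not read the floxed part directly, so genotype was not settled from it and directions are given by library.

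After quality filters 12523 cells were kept in the Het-headed library (median 10751 UMIs a cell) and 10345 in the MKO-headed library (median 9480 UMIs), and 74 barcodes occurred in both, 14 of them a muscle cell in 1 library and 0 in both. A muscle cell was one with at least 2 UMIs of Pax7, Myf5, Myod1 and Myog together, the factors of the myogenic lineage. This gave 2753 muscle cells in the Het-headed library (22.0%, exact binomial 95% interval 21.3 to 22.7%) and 140 in the MKO-headed library (1.35%, 1.14 to 1.60%). At least 3 of 6 muscle markers outside the gate (Des, Msc, Chrna1, Actc1, Mylpf and Tnnt1) had a UMI in 78.2% and 82.9% of them, against 3.33% and 0.363% of other cells. From the lowest to the highest Myog bin this share was 67.4%, 67.9%, 94.1% and 98.7% in the Het-headed library. It was 64.3%, 87.5%, 94.4% and 100% in the MKO-headed library. At least 3 of 6 markers of another cell class were found in 27.9% and 32.1% of muscle cells. The shares were 28.2% and 33.9% of those without a Myog UMI, and 40.3% and 54.2% of those with 1 to 4 Myog UMIs. Ratios of the top bin to the 0 bin were also taken without such cells, and those of Boc and Cdh2 are given below. No values of the middle bins are given without such cells. The bins of 0, 1 to 4, 5 to 14 and 15 or more Myog UMIs held 1121, 641, 371 and 620 cells of the Het-headed library and 56, 24, 18 and 42 of the MKO-headed library.

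The results by Myog turn on Mymk and Mymx, and the coding sequence of Mymx is printed because it shows a whole fusion protein in a few codons. The libraries were read from the 3' end of transcripts, and whether counted reads reached this stretch was not examined. Mymx, at chr17:45600971-45602102 on the minus strand of GRCm38, is a very short gene. The coding sequence shared by 3 of its 4 coding transcripts in GENCODE vM21 runs over chr17:45601417-45601671 and has 255 bases, or 84 codons before the stop. It is printed 5′ to 3′ with the start and stop codons in capitals.
Mymx coding sequence: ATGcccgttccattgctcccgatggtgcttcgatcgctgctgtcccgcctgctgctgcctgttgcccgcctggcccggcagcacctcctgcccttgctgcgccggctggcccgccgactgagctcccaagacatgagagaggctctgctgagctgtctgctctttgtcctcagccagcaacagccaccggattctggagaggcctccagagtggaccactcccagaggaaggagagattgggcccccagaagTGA

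The genes of the fusion machinery were carried by muscle cells with many Myog UMIs. In the Het-headed library, Mymk stood at 0.994 CPM in muscle cells without a Myog UMI, 4.25 at 1 to 4, 59.0 at 5 to 14 and 175 at 15 or more. Its levels in the MKO-headed library were 0 (0 UMIs, where a floor of 3 counts allows up to 3.19 CPM), 7.26, 46.2 and 142. Mymk thus rose from bin to bin in the Het-headed library, where the lowest bin lay at the level of other cells, 1.17 CPM. In the MKO-headed library the first step, from 0 to 3 UMIs, had a lower limit of log2 -0.09, and the later steps rose. Other cells there had 0.208 CPM, and 0 UMIs in 56 cells are too few to place the lowest bin against that level. The top bin was 176-fold above the 0 bin in the Het-headed library (log2 ratio 7.46, exact interval 6.80 to 8.22). Since that 0 bin, on 18 UMIs, lay at the level of other cells, this fold is over a level read as background. For the MKO-headed library the top bin was at least 44.4-fold higher, taking 3 counts as the floor of the 0 bin.

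Mymx followed the same course at higher counts. Its levels in the Het-headed library were 2.37, 9.07, 152 and 456 CPM from the lowest to the highest bin, a log2 ratio of 7.59 (7.15 to 8.06). The lowest bin again lay at the level of other cells, which was 2.51 CPM. Levels of Mymx in the MKO-headed library were 1.07, 19.4, 109 and 333 CPM, where the lowest value is 1 UMI and the ratio, 8.29, has an interval of 5.80 to 13.60. The largest step came between the bins of 1 to 4 and 5 to 14 Myog UMIs, by log2 3.79 (3.34 to 4.28) for Mymk and 4.07 (3.76 to 4.39) for Mymx in the Het-headed library. Markers of another class were carried by 40.3% of cells at 1 to 4 and 17.8% at 5 to 14 in the Het-headed library. The part of such cells in the step was not tested. Median depth lay between 13416 and 15106 UMIs a cell over the bins of that library. In cells all thinned to 2000 UMIs, with the bins kept from the full counts, 0.178%, 1.28%, 15.2% and 29.8% of cells of the Het-headed library had a Mymk UMI over the bins, and unthinned 1.52%, 6.55%, 44.2% and 82.1%. Other cells had one in 1.23%, so the 0 bin was read as background.

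**Figure D1:**
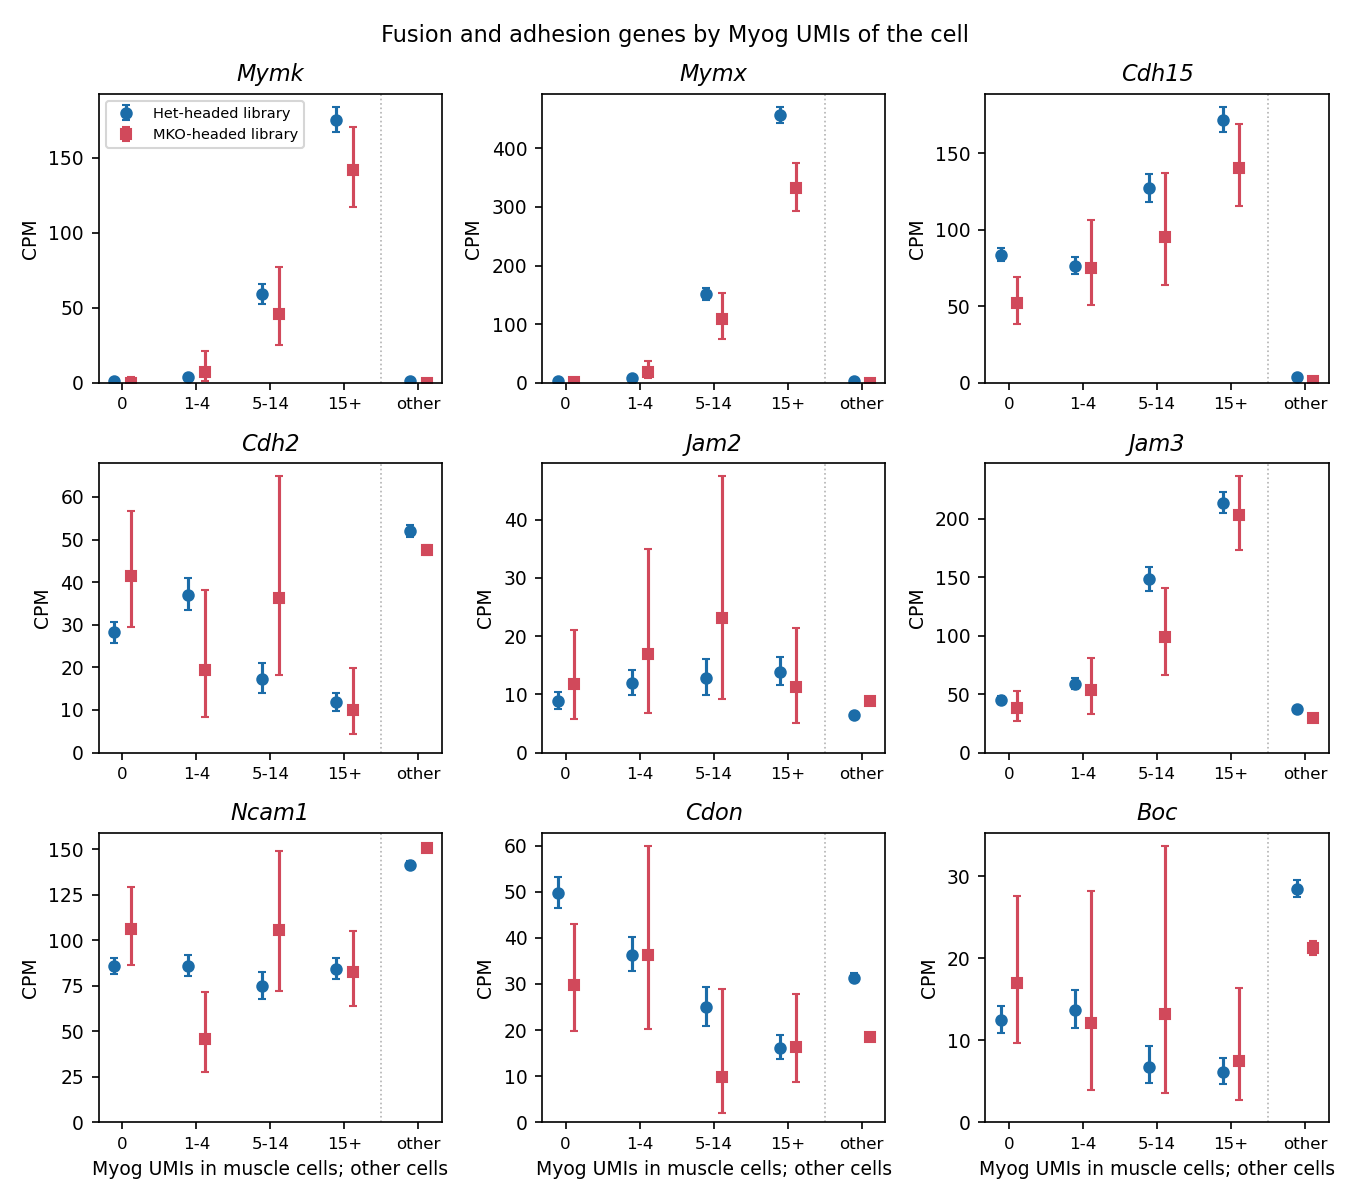
CPM of each of the 9 genes (linear axis from 0, different for each gene) in muscle cells by number of Myog UMIs and, right of the dotted line, in other cells. Circles are the Het-headed and squares the MKO-headed library, each 1 value with its exact 95% Poisson interval; Mymk, Mymx and Jam3 rise from left to right in both libraries, Cdh15 does in the MKO-headed library and from the second bin on in the Het-headed library, Cdon and Cdh2 end lowest in the Het-headed library, and Ncam1 stays between 74.9 and 86.1 there.

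Most cells of the top Myog bin held both Mymk and Mymx. Each gene was found in most cells of that bin, so a large overlap was to be expected. Mymk was found in 82.1% and Mymx in 95.65% of them in the Het-headed library, and in 76.2% and 90.5% in the MKO-headed library. In the top bin of the Het-headed library 80.5% of 620 cells had a UMI of both, 15.2% of Mymx alone, 1.61% of Mymk alone and 2.74% of neither. The corresponding shares of 42 cells of the MKO-headed library were 73.8%, 16.7%, 2.38% and 7.14%. At 5 to 14 Myog UMIs in the Het-headed library 36.4% of cells had both, 29.1% Mymx alone and 7.82% Mymk alone. At 1 to 4 these shares were 2.34%, 7.96% and 4.21%, and at 0 they were 0%, 3.75% and 1.52%. There were 2.59 Mymx UMIs for each Mymk UMI over all muscle cells of the Het-headed library, 2.14 to 2.61 over its bins, and 2.36 in those of the MKO-headed library. In other cells of the Het-headed library the same quotient was 2.14, with 7 of 9770 cells holding both genes.

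The adhesion genes divided by direction. Jam3 rose in the Het-headed library from 45.0 CPM through 58.9 and 149 to 214, a log2 ratio of 2.25 (2.13 to 2.36). Jam3 in the MKO-headed library went from 38.3 through 53.2 and 98.9 to 203 CPM, a log2 ratio of 2.41 (1.88 to 2.97) on 36 and 162 UMIs. In the 0 bin of the Het-headed library 47.9% of cells had a Jam3 UMI, and in other cells, where Jam3 stood at 37.3 CPM, 30.5% did, at median depths of 14863 and 9528 UMIs. After thinning to 2000 UMIs these shares were 9.54% (7.89 to 11.4%) and 7.29% (6.77 to 7.84%).
Cdh15 stood at 83.6, 76.7, 127 and 172 CPM in the Het-headed library. It did not rise between the lowest bins (log2 -0.13, -0.25 to 0.00) and rose afterwards, by 1.04 (0.94 to 1.14) from the lowest to the highest. At 1 to 4 Myog UMIs 56.8% of cells had a Cdh15 UMI, against 67.7% in the 0 bin, and 40.3% carried markers of another class. The part of such cells in the first steps was not tested. Levels of Cdh15 in the MKO-headed library were 52.2, 75.0, 95.6 and 141 CPM, a log2 ratio of 1.43 (0.93 to 1.94). Cdh15 in the Het-headed library lies just past the 2-fold limit, and it was 0.92 when gate, bins and levels came from thinned cells, where the top bin held at least 3 Myog UMIs.
Jam2, at 8.89, 11.9, 12.7 and 13.8 CPM in the Het-headed library, had a log2 ratio of 0.64 (0.30 to 0.97), below 2-fold, and in the MKO-headed library -0.05 (-1.50 to 1.36) on 11 and 9 UMIs.

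Cdon, Boc and Cdh2 went the other way. Cdon stood at 49.7, 36.3, 24.9 and 16.2 CPM in the Het-headed library, lower at each step, with a log2 ratio of -1.62 (-1.87 to -1.38). It was -2.67 with levels from thinned cells and -3.34 when gate and bins were thinned too. The MKO-headed library held 28, 15, 3 and 13 Cdon UMIs over the bins, or 29.8, 36.3, 9.89 and 16.3 CPM, and the interval of the ratio spanned 0 (-0.87, -1.94 to 0.13). Boc, the relative of Cdon, stood at 12.5, 13.7, 6.81 and 6.09 CPM in the Het-headed library, a log2 ratio of -1.03 (-1.46 to -0.62). Without the muscle cells that carry markers of another class this ratio was -1.75. It was -1.95 with levels from thinned cells and -3.66 with gate, bins and levels thinned. The main ratio of Boc lies just past the 2-fold limit, and its smallest size under the alternatives was -0.98.
Cdh2 was highest at 1 to 4 Myog UMIs in the Het-headed library, with 28.2, 37.1, 17.2 and 11.8 CPM and a log2 ratio of -1.26 (-1.56 to -0.97) between the ends. The bin where Cdh2 was highest is also the one with the largest share of cells that carry markers of another class, 40.3%. Without such cells its ratio between the ends was -2.48, and with thinned gate, bins and levels -0.66. Its level at 1 to 4 Myog UMIs is not given without such cells. Cdh2 in the MKO-headed library had 39, 8, 11 and 8 UMIs, or 41.5, 19.4, 36.3 and 10.0 CPM, and a ratio of -2.05 (-3.36 to -0.93).
Ncam1 was level over the Myog bins of the Het-headed library: 86.0, 86.1, 74.9 and 84.4 CPM gave a log2 ratio of -0.03 (-0.15 to 0.09). When gate, bins and levels came from thinned cells the ratio was -0.63. It varied without order in the MKO-headed library, at 106.5, 46.0, 105.5 and 82.8 CPM.

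Counted over the members, 4 of 9 were at least 2-fold higher in the top bin than in the 0 bin of the Het-headed library (Mymk, Mymx, Jam3 and Cdh15) and 3 were at least 2-fold lower (Cdon, Cdh2 and Boc). Of all 8345 genes with at least 200 UMIs in both bins together, 6.04% were higher and 11% lower by that measure. The median log2 ratio was 0.64 over the 9 members and -0.17 over all those genes. Only Mymx reached 200 UMIs in the MKO-headed library, and it was higher, where 5.49% of 1203 genes were higher and 5.07% lower. When muscle cells with markers of another class were left out, 4 members were higher and 2 lower in the Het-headed library. Cdon, Cdh2 and Boc were each still more than 2-fold lower there, so the smaller count comes from the minimum of 200 UMIs. When the gate, the bins and the levels all came from cells thinned to 2000 UMIs, the numbers were 3 and 1. Cdh15 (0.92) and Cdh2 (-0.66) were then below 2-fold. Cdon (-3.34) and Boc (-3.66) were both past it, but only 1 of them met the minimum.

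The order held at finer steps. The muscle cells of the Het-headed library were put in order of Myog UMIs per 10000 and cut into 20 pools of 137 or 138 cells, of which pools 1 to 8 held no Myog and were ordered by depth only. Mymk lay between 0 and 2.34 CPM over those 8 pools, reached 7.27 in pool 12 and 249 in pool 20, and was higher in each pool from 11 on than in the one before. Mymx reached 689 CPM in pool 20, Jam3 289 and Cdh15 219. Cdh2 peaked at 44.5 CPM in pool 10 and fell to 1.80 in pool 20. Cdon stood at 44.4 CPM in pool 1 and 54.7 in pool 8, the shallowest and the deepest of the pools without Myog. It was lowest in pool 19, at 7.63, and stood at 10.8 in pool 20.

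**Figure D2:**
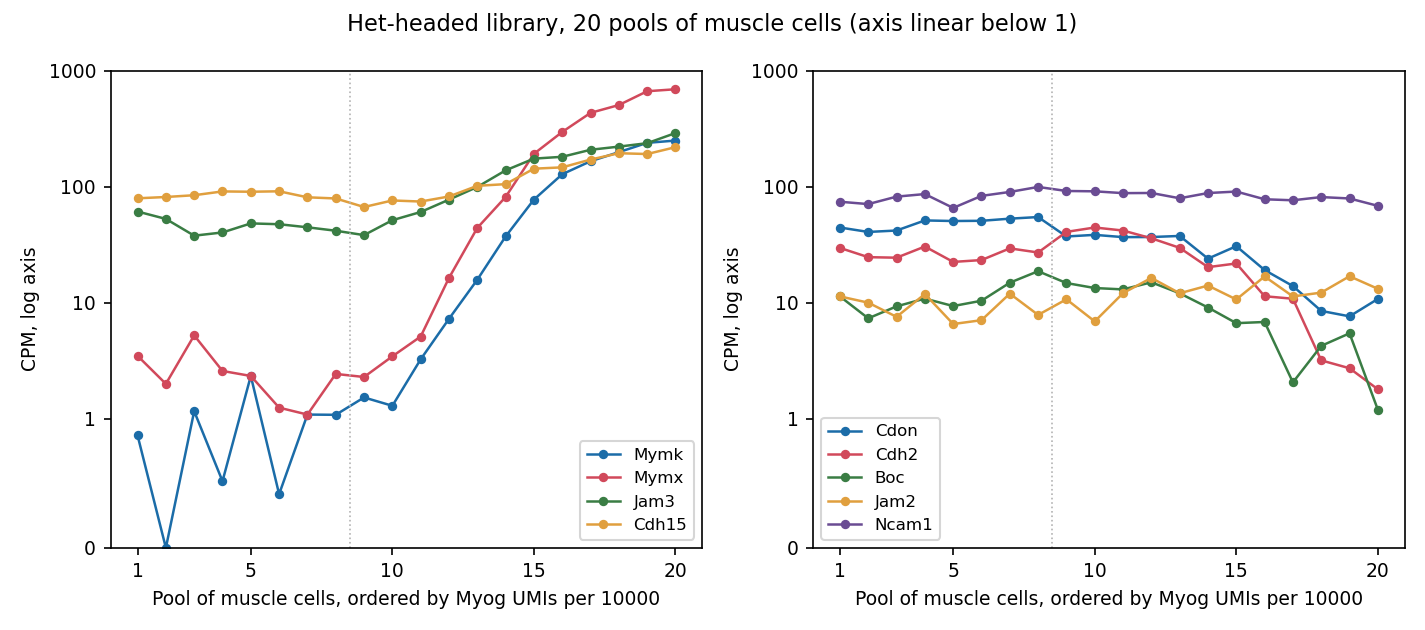
CPM (log axis, linear below 1) of the 9 genes over 20 pools of muscle cells of the Het-headed library, ordered by Myog UMIs per 10000, with lines joining the pools. Left of the dotted line the pools hold no Myog UMI. Mymk and Mymx rise to 249 and 689 in pool 20 and cross the flatter curves of Cdh15 and Jam3. Cdh2, Cdon and Boc decline over the last pools. Ncam1 falls less, from 90.7 in pool 15 to 68.3 in pool 20, and Jam2 varies without order.

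The 10 genes whose log2(CPM + 10) followed Mymk most closely over these pools, by Pearson's r, were Hspb2 (0.997), Mymx (0.997), Bin1, Lsm6, Klhl41 and Sept4 (0.996 each), Dbn1 and Atp2a1 (0.995 each), and Palmd and Gm45159 (0.994 each). Atp2a1 encodes a calcium pump of the sarcoplasmic reticulum, Klhl41 a sarcomere-associated protein, Bin1 a protein of T-tubule membranes, Hspb2 a small heat shock protein of muscle and Dbn1 an actin-binding protein. Mymx thus ranked 2 of 9449 genes, Jam3 109 (r = 0.977), Cdh15 168 (0.968), Myog itself 397 (0.924) and Jam2 1585 (0.575). Ncam1 had r = -0.286, Boc -0.826, Cdh2 -0.884 and Cdon -0.947. In the MKO-headed library, with pools of 7 cells, Mymx ranked 1 of 1700 genes (r = 0.981) and Jam3 8 (0.942). The pools share 1 library and the Myog order, so these values describe the curves and carry no p.

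Within the top bin the fusion genes also differed by Myh3, embryonic myosin heavy chain and a later product of the programme than Myog. This split was chosen after values had been seen. In the Het-headed library, Mymk stood at 271 CPM in cells with at least 5 Myh3 UMIs and at 106 in cells with none, and Mymx at 719 and 282, a log2 ratio of 1.35 for each (1.19 to 1.52 and 1.25 to 1.45). Ncam1, level over the Myog bins, was 131 and 59.4 CPM (1.14, 0.91 to 1.38). Cdh15 (0.33, 0.16 to 0.49) and Jam3 (0.38, 0.23 to 0.53) differed less, and Cdh2 was lower (-0.91, -1.71 to -0.16). In the MKO-headed library the log2 ratios were 1.35 (0.61 to 2.09) for Mymk, 0.97 (0.47 to 1.45) for Mymx and 1.55 (0.70 to 2.42) for Ncam1, on 24 to 86 UMIs a side from 8 cells with at least 5 Myh3 UMIs and 21 with none. Cells with 1 to 4 Myh3 UMIs lay between the ends in the Het-headed library, at 190 CPM of Mymk and 474 of Mymx in 199 cells. The 13 such cells of the MKO-headed library were highest, at 220 CPM of Mymk and 547 of Mymx, against 204 and 394 at 5 or more. The intervals of these 13 cells and of those at 5 or more overlapped for each gene. Myog differed between these groups too. From 0 through 1 to 4 to 5 or more Myh3 UMIs it stood at 1371, 1603 and 1598 CPM in the Het-headed library. The MKO-headed library had 1357, 2335 and 1419 CPM, with the most Myog in those 13 cells. The part of Myog in these differences was not tested.

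Of 55 other genes of myoblast fusion and adhesion, 38 had enough UMIs for the bins of the Het-headed library. Of these, 5 were at least 2-fold higher in the top bin and 4 at least 2-fold lower, with a median log2 ratio of -0.34, where 6.04% of all genes tested were higher and 11% lower. The 3 highest were Cav3 (caveolin 3, a muscle membrane protein; 3.86, 3.42 to 4.34), Elmo1 (an activator of the small GTPase Rac with Dock1; 3.22, 2.83 to 3.63) and Adam12 (a membrane metalloprotease; 1.86, 1.43 to 2.31). The 3 lowest were Vcam1 (a vascular and myoblast adhesion molecule; -2.28, -2.59 to -1.98), Kirrel (an immunoglobulin-type adhesion protein; -1.84, -2.44 to -1.29) and Wipf1 (a partner of WASP in actin assembly; -1.41, -1.74 to -1.10).

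Between muscle cells and all other sorted cells, 3 genes stood far apart. In the Het-headed library Mymk was at 49.2 CPM in muscle and 1.17 in other cells, Mymx at 127 and 2.51, and Cdh15 at 108 and 4.13, with log2 ratios of 5.39, 5.67 and 4.71. With a gate that leaves out Myog, so that cells with Myog alone count as other cells, the ratios of Mymk and Mymx were 2.27 and 2.20. Muscle cells held 94.5% of all Mymk UMIs of that library, 95.4% of Mymx and 91.5% of Cdh15, though they were 22.0% of its cells and 29.2% of its UMIs. In the MKO-headed library the ratios were 8.0, 8.88 and 6.03, and the shares 83.9%, 90.6% and 57.1% from muscle cells with 2.0% of all UMIs. Jam3, at 100 against 37.3 CPM in the Het-headed library, was higher in muscle by log2 1.43, and by 1.80 in the MKO-headed library. Jam2 was higher by 0.79 and 0.65 and Cdon by 0.19 and 0.39 (-0.01 to 0.76), less than 2-fold.
Ncam1, Cdh2 and Boc were lower in muscle than in the other cells as a whole, by log2 -0.75, -1.05 and -1.43 in the Het-headed library and -0.77, -0.82 and -0.75 in the MKO-headed library. Thus 4 of 9 members were at least 2-fold higher and 2 lower in the Het-headed library, where 4.24% of 13022 genes were higher and 24.2% lower. In the MKO-headed library 3 of 8 tested were higher and 0 lower, against 4.53% and 29.2% of 13025 genes. Mymk fell short of 200 UMIs there.

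Other cells carried the remaining adhesion genes in distinct patterns. A cell was placed in a class, called by that class's name with the ending -like, when at least 3 of 6 fixed markers had a UMI and no other class had as many. Ncam1 was highest in neuron-like cells, with 736 CPM in the Het-headed and 720.5 in the MKO-headed library (intervals 712 to 761 and 704 to 737). It was next in Schwann-like cells, at 392 and 386, and then in mesenchymal-like cells, at 132 and 135 CPM. Muscle cells, at 84.2 and 88.5, lay near bone-like, pericyte-like and cartilage-like cells, whose intervals overlapped each other in the Het-headed library.
Cdh2 was highest in bone-like cells (277, 255 to 300) and Schwann-like cells (244, 221 to 269 CPM) of the Het-headed library, whose intervals overlapped. In the MKO-headed library Schwann-like cells came first at 260 CPM (232 to 290) and bone-like cells stood at 189 (162 to 219). Neuron-like cells had 166 and 177 and pericyte-like cells 103 and 114 CPM, all above the 25.1 and 26.9 of muscle cells.

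Cdon and Boc shared a leading class. Mesenchymal-like cells had 49.9 and 38.9 CPM of Cdon and 41.7 and 40.5 of Boc in the Het-headed and MKO-headed libraries. No other class passed 19.1 CPM of Cdon or 21.7 of Boc. Muscle cells without a Myog UMI, at 49.7 CPM in the Het-headed library, had as much Cdon as mesenchymal-like cells (47.9 to 52.1), while their Boc level of 12.5 was lower. Of these 1121 cells, 249 carried at least 3 mesenchymal markers. In the MKO-headed library muscle cells without a Myog UMI had 29.8 CPM of Cdon (19.8 to 43.1) and 17.0 of Boc (9.74 to 27.7), on 28 and 16 UMIs.
Jam3 outside muscle was highest in Schwann-like cells, at 91.6 and 89.9 CPM, near the muscle averages of 100 and 102. Mesenchymal-like, cartilage-like and pericyte-like cells had overlapping intervals around 37.5 to 40.5 CPM in both libraries. Jam2 was highest in bone-like (31.2, 24.1 to 39.8) and endothelial-like cells (25.0, 21.1 to 29.3 CPM) of the Het-headed library, whose intervals overlapped, and in the MKO-headed library in endothelial-like (21.6, 19.5 to 23.9), bone-like (17.7, 10.1 to 28.7) and Schwann-like cells (16.6, 10.2 to 25.7), whose intervals overlapped too. Pericyte-like cells had 0 Jam2 UMIs in both libraries, where the floor of 3 counts allows up to 2.26 and 4.48 CPM.

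**Figure D3:**
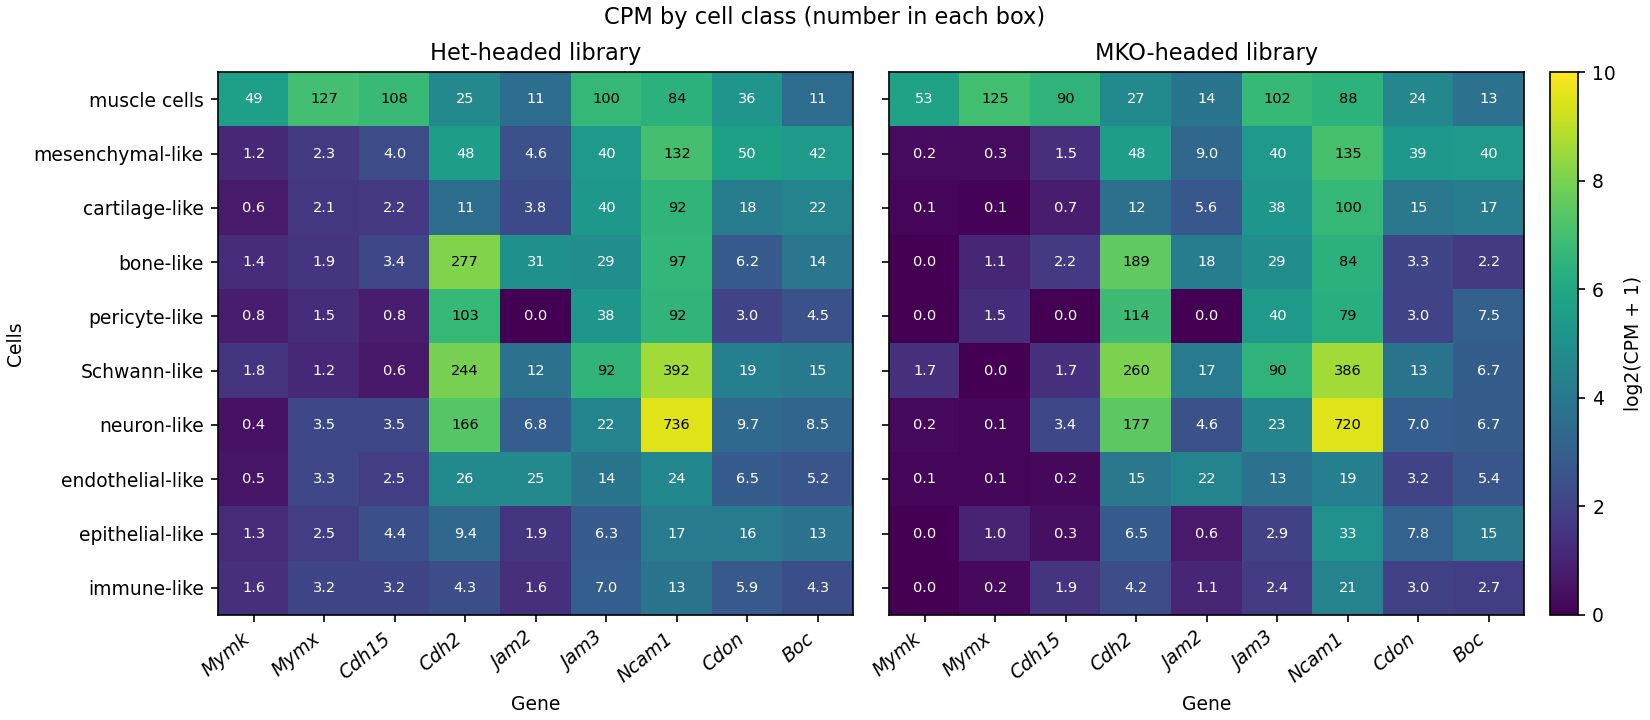
CPM of the 9 genes (columns) in muscle cells and in 9 marker classes of other cells (rows) of each library; the number is in each box and the colour is its log2 after adding 1. Mymk, Mymx and Cdh15 are high only in the muscle row, Ncam1 peaks in neuron-like cells at 736 and 720.5, Cdh2 in bone-like and Schwann-like cells, and Cdon and Boc in mesenchymal-like cells.

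Mymk, Mymx and Cdh15 differed most between the libraries in other cells as a whole. Mymk stood at 1.17 and 0.208 CPM in other cells of the Het-headed and MKO-headed libraries, Mymx at 2.51 and 0.266, and Cdh15 at 4.13 and 1.38, log2 ratios of 2.50 (1.87 to 3.18), 3.24 (2.71 to 3.82) and 1.58 (1.32 to 1.85). The other members were less than 2-fold apart. Cdon stood at 31.4 and 18.4 CPM, Boc at 28.5 and 21.3, Jam3 at 37.3 and 29.4 and Cdh2 at 52.0 and 47.5. Jam2, at 6.50 and 8.85, and Ncam1, at 141.5 and 150.6, were lower in the Het-headed library. Among the 8 members tested, 2 were at least 2-fold higher in the Het-headed library and 0 lower, against 0.67% and 4.6% of 14187 genes. Over the 9 classes of the Het-headed library, Mymk ran from 0.415 to 1.84 and Mymx from 1.23 to 3.52 CPM, a like low level in cell types that should lack both. The ratio of Cdh15 varied by class. Its log2 ratio was 1.35 (0.89 to 1.84) in mesenchymal-like and 1.55 (0.78 to 2.38) in cartilage-like cells. It was 3.90 (2.07 to 6.33) in endothelial-like and 3.77 (0.81 to 9.26) in epithelial-like cells, the latter on 7 and 1 UMIs. In neuron-like cells it was 0.03 (-0.90 to 0.91). The interval also spanned 0 in immune-like cells (0.74, -0.88 to 2.12), though it was too wide to show that a difference was absent, and in bone-like and Schwann-like cells. The library with more of this signal is the one in which muscle cells held 29.2% of all UMIs, against 2.0%. The part of free RNA from muscle cells in these 3 ratios was not tested. In mesenchymal-like cells, Cdon was also higher in the Het-headed library (0.36, 0.26 to 0.46) and Jam2 lower (-0.97, -1.24 to -0.71), whereas Cdh2, Jam3, Ncam1 and Boc lay between -0.04 and 0.04.

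Over all muscle cells no member differed 2-fold between libraries. With the titles and headings in conflict, the comparison is the Het-headed over the MKO-headed library. Over all muscle cells the log2 ratios of 7 members had intervals that spanned 0: Mymk -0.11 (-0.36 to 0.16), Mymx 0.02 (-0.14 to 0.19), Jam3 -0.03 (-0.21 to 0.16), Ncam1 -0.07 (-0.27 to 0.13), Cdh2 -0.10 (-0.46 to 0.28), Jam2 -0.31 (-0.81 to 0.24) and Boc -0.26 (-0.78 to 0.32). Cdon was higher in the Het-headed library at 35.7 against 24.1 CPM (0.57, 0.20 to 0.97), and Cdh15 at 108 against 90.1 (0.26, 0.06 to 0.46). Of all 9573 genes tested 2.1% were at least 2-fold higher and 1.02% lower, beside 0 and 0 of the 9 members.

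The libraries differed in make-up, since 22.5% of muscle cells of the Het-headed (21.0 to 24.1%) and 30% of the MKO-headed library (22.6 to 38.3%) were in the top Myog bin. Within that bin Mymx stood at 456 against 333 CPM (log2 ratio 0.46, 0.28 to 0.64) and Mymk at 175 against 142 (0.31, 0.03 to 0.59). Cdh15 stood at 172 against 141 (0.29, 0.01 to 0.58). All were higher in the Het-headed library, and the other 6 had intervals that spanned 0. Split by Myh3 UMIs, Mymk and Mymx in that bin were higher in the Het-headed library at 0 and at 5 or more. At 1 to 4 both were lower there, Mymk at 190 (175 to 207) against 220 (162 to 292) and Mymx at 474 (450 to 499.5) against 547 (453 to 656) CPM. The intervals overlapped for Mymk in each of these groups and for Mymx at 1 to 4. They did not overlap for Mymx at 0 and at 5 or more. The groups of 0, 1 to 4 and 5 or more held 270, 199 and 151 cells against 21, 13 and 8. The part of Myh3 in the library ratios was not tested. In the bin of 0 Myog UMIs Cdh15 (0.68, 0.27 to 1.12) and Cdon (0.74, 0.20 to 1.34) were higher and Cdh2 lower (-0.56, -1.03 to -0.05) in the Het-headed library. In that bin 17 of 1121 cells of the Het-headed and 5 of 56 of the MKO-headed library carried at least 3 neuron markers. Markers of any other class were carried by 28.2% and 33.9%. The part of such cells in these ratios was not tested. The middle bins, with 24 and 18 cells of the MKO-headed library, held 3 ratios whose intervals did not span 0: Ncam1 at 1 to 4 Myog UMIs (0.91, 0.25 to 1.64), Jam3 at 5 to 14 (0.59, 0.06 to 1.16) and Cdh2 at 5 to 14, lower in the Het-headed library by more than 2-fold (-1.08, -1.98 to -0.03) on 96 and 11 UMIs. With the Het-headed bins weighted to the make-up of the MKO-headed library, the log2 ratios became 0.30 for Mymk, 0.44 for Mymx, 0.37 for Cdh15 and 0.48 for Cdon. These intervals leave out the variation between embryos, so genotype and embryo cannot be told apart in them.

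**Figure D4:**
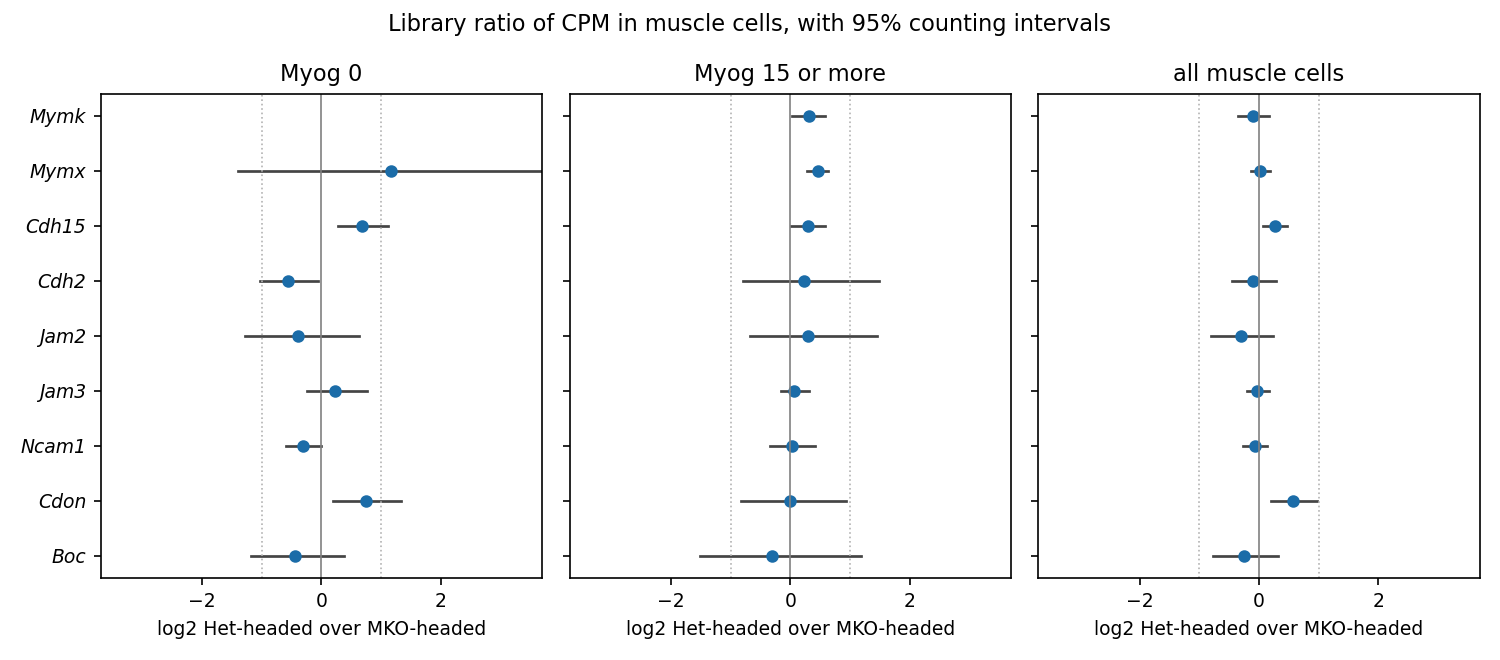
Log2 ratio of CPM, Het-headed over MKO-headed library, for the 9 genes in muscle cells without a Myog UMI, in those with 15 or more, and in all; points are ratios, bars exact 95% counting intervals, and dotted lines 2-fold. Mymk has no point in the left panel because the MKO-headed library has 0 UMIs there, and the bar of Mymx runs past the axis to 6.49; over all muscle cells the points of the 9 genes lie between -0.31 and 0.57.

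Among the 55 other fusion and adhesion genes, 42 could be compared between the libraries in muscle cells, and 0 were 2-fold apart in either direction (median log2 ratio 0.09, against 0.05 over all genes). The highest ratios were those of Itga7 (a laminin-binding integrin of muscle; 0.98, 0.31 to 1.75), Cdh4 (a classical cadherin; 0.94, -0.01 to 2.08) and Kirrel (0.70, -0.09 to 1.62). The lowest were those of Cav3 (-0.72, -1.14 to -0.28), Cd9 (a tetraspanin; -0.35, -0.58 to -0.12) and Anxa1 (a calcium-dependent membrane-binding protein; -0.29, -0.67 to 0.11).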

How the data were processed

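Single tdTomato-sorted cells were prepared with 10x Genomics 3' chemistry, 1 library per genotype. The deposited values are UMI counts per gene and barcode that the authors made with Cell Ranger 5.0.0 (the version in the matrix header; the labels' processing notes list 3.1.0) on mm10, with reads down-sampled to join the libraries. Barcode suffixes were tied to samples by the number of cells each summary gives. The libraries held 15268 and 12498 barcodes with 156093779 and 128116615 UMIs. After the study's filters, cells beyond 2 SD of a library's mean in UMIs or genes, or above 10% mitochondrial UMIs, were left out; the scale of these limits is not given in the sources used here and log10 was taken, which kept 22868 cells (24510 with untransformed values); no doublet caller was run, so doublets remain possible. UMIs were summed over cells and divided by all UMIs of those cells, times 1000000 (CPM). Intervals are at 95%: exact Poisson for levels, Clopper-Pearson for shares, and for ratios the Clopper-Pearson interval of how the UMIs divide; UMIs of 1 cell are not independent, so the intervals are too narrow for cells and say nothing of embryos. Genes needed 200 UMIs in the sets compared, and 2-fold was the call. A 3' UMI counts molecules and is not scaled by length, so levels are compared within a gene and not between genes. Positions came from GENCODE vM21 for all 9 members, and scripts, tested on simulated data, used Python 3.11.15, NumPy 2.4.6, SciPy 1.17.1 and pandas 2.3.3.

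Named genes were the 9 members, the gate genes, Srsf2, the 10 genes most like Mymk, and the 3 highest and 3 lowest of 55 listed fusion and adhesion genes in the bins and between libraries. The members, lists and comparisons were chosen with earlier results of these data known. Of the erythroid markers 5 of 6 were in the table. Classes under 50 cells in a library, which were neural progenitor and erythroid, were not given. Alternatives to the filters, gate, bins, denominator, depth and minimum count were tried.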

Additional observations from a re-analysis of the deposited data

How the results depend on the processing

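No paired analysis was possible because each genotype has 1 library. Of 559 member ratios under the alternatives, 444 stayed within their counting interval and 115 moved, and none that was called changed sign. Ratios of muscle to other cells in the Het-headed library moved most often, 45 of 90. Where ratios moved, the cause was not tested. In the Myog bins of the MKO-headed library, where only 1 member was tested and higher, 2 were higher with no quality filters, 2 with the mean over cells, 4 with no minimum of UMIs (2 were then lower), 0 with a mitochondrial limit of 5% and 0 with gate, bins and levels from cells thinned to 2000 UMIs, which also left 1 lower of 3 in the Het-headed library. For muscle against other cells, 1 in place of 2 was lower in the Het-headed library with a mitochondrial limit of 5% and with a denominator without mitochondrial, haemoglobin and ribosomal protein genes, and in place of 0 in the MKO-headed library 2 were lower without muscle cells that carry markers of another class, 3 with the mean over cells and 3 with thinned levels. The count between libraries in muscle cells stayed at 0 under all alternatives run, and the top 10 genes like Mymk shared 9 with 10 pools. The log2 ratios of muscle to other cells ran from 2.27 to 5.66 for Mymk and from 2.20 to 5.98 for Mymx in the Het-headed library, lowest with a gate without Myog, which by its construction counts cells with Myog alone as other cells, whereas their ratios between Myog bins stayed at 7.25 to 7.75 and 7.23 to 7.79. Quality limits on untransformed UMIs and genes, an alternative chosen after seeing the data, changed none of the counts of members past 2-fold. The 140 muscle cells of the MKO-headed library limit all of its values by bin.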

Other observations

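In Het-headed muscle cells without a Myog UMI, no adhesion gene differed 2-fold with Mki67, and Jam2 differed most. Among the 1121 muscle cells of the Het-headed library without a Myog UMI, 792 had an Mki67 UMI (a proliferation marker; median 16330 UMIs a cell) and 329 had none (11581). Jam2 was higher with Mki67 (log2 ratio 0.87, 0.21 to 1.59), Cdh15 by 0.24 (0.05 to 0.42) and Ncam1 by 0.19 (0.01 to 0.38), and the intervals of Cdh2, Jam3, Cdon and Boc spanned 0. Of the same cells, 948 had a Pax7 UMI and 173 had none. Cdon (0.45, 0.14 to 0.78) and Ncam1 (0.32, 0.09 to 0.55) were higher and Cdh2 lower (-0.42, -0.75 to -0.07) in those with Pax7. In the MKO-headed library the same splits rested on 39 and 17 cells. Cdh15 was lower with Pax7 there (-0.94, -1.81 to -0.04), whereas its Het-headed interval spanned 0 (0.10, -0.12 to 0.33). Cdh2 was higher with Pax7 in the MKO-headed library (1.29), with an interval that spanned 0. Pax7 is also a gate gene. Without Pax7 and Myog UMIs, a cell passed the gate only with at least 2 UMIs of Myf5 and Myod1 together. The part of this selection in the ratios by Pax7 was not tested. The splits by Mki67 and Pax7 were chosen after values had been seen, deeper cells show a marker more often, and the part of depth was not tested.

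Of the UMIs of Mymk, Mymx and Cdh15 in muscle cells, the number for every 100 Myog UMIs was 11.7, 30.4 and 11.5 in the top bin of the Het-headed library and 8.69, 20.4 and 8.62 in that of the MKO-headed library. At 5 to 14 Myog UMIs the numbers were 9.24, 23.8 and 19.9 against 9.52, 22.45 and 19.7. At 1 to 4 they were 3.90, 8.33 and 70.4 against 5.77, 15.4 and 59.6, with 3 Mymk and 8 Mymx UMIs in the MKO-headed library. Myog, which sets the bins, stood at 1501 and 1631 CPM in the top bins.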
